A study of Mus musculus with 4 samples.

Results

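DNA repair and damage signalling genes were followed over 4 mouse stem cell arrays. They are a list of 46 genes, found by their platform gene symbol, of which 45 were measured among 18193 genes with a symbol of their own. Xrcc2 was not analysed here. The list holds 4 checkpoint kinase genes, 18 genes of homologous recombination and the Fanconi pathway, 5 of end joining, 3 of mismatch repair, 15 of excision repair and Mgmt, which reverses damage directly. The RNA came from germline stem (GS) cells, which are spermatogonial stem cells kept in culture, multipotent germline stem (mGS) cells, R1 embryonic stem (ES) cells and GS cells of Trp53 knockout mice. A medium built on StemPro-34 held the GS cultures, and a standard ES medium held the mGS and ES cultures. The knockout title names the strain ICR, and the sources used here do not give the strain of the GS and mGS cells. R1 is an established line, no label says how many animals or cultures stood behind an array, and the knockout label was not checked at its target because Trp53 was not analysed here.

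Cells mend broken DNA by several routes. Homologous recombination copies the lost stretch from a sister chromatid and works mostly in S and G2 phase, while end joining seals the ends directly at any phase. Mismatch repair corrects replication errors, nucleotide excision removes bulky lesions such as ultraviolet photoproducts, and base excision removes small base lesions and nicks. The kinases ATM and ATR sense breaks and stalled forks and pass the signal to CHEK2 and CHEK1. Germline stem cells carry the genome to the next generation and pluripotent cells found all tissues, so repair in both is a common subject of study.

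With 1 array a group, differences are described by size, with no replicate check and no p-value. Signals are intensities after quantile normalization, which gives all arrays one distribution. The array median, a signal of 82.7, served as a floor. Lower values were set to the floor, and a difference that uses one is a bound. Of the 45 genes, 42 were above the floor on all 4 arrays and 3 on some. A call is a difference of at least 2-fold. As a measure of noise between probe sets, the gap between the differences from the 2 highest probe sets of a gene was taken. Its standard deviation was from 0.580 (ES against mGS) to 0.790 (ES against GS) on the log2 scale. Both probe sets were read on the same arrays, so this spread leaves out variation between cultures and arrays. Only 1 probe set was listed for 19 of the genes. In bulk RNA, fewer cells of a type and less RNA per cell cannot be told apart. Of 13 germ cell markers, the GS and knockout arrays each had 12 above the floor, mGS had 10 and ES 7, with summed signals of 94285, 103204, 6896 and 3765. All 15 pluripotency markers passed the floor for mGS and for ES, against 8 for GS and 10 for the knockout.

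The repair genes were mostly within 2-fold between arrays, and 26 of the 45 were within 2-fold in every comparison made. The design text asks which genes differ as GS cells convert to mGS cells. Between these, 2 repair genes had at least 2-fold more signal on the mGS array and 5 had less, or 4.44% and 11.1% of 45. Among all genes compared the shares were 15.3% and 16.5%, and 31.8% in either direction against 15.6% of the repair genes. Between ES and GS, 3 were higher and 10 lower on the ES array, 6.67% and 22.2%, against 17.4% and 17.2% of all genes, or 28.9% against 34.6% in either direction. This comparison shares the GS array with the first. Fibroblast markers moved with it: of 23 compared, 20 were at least 2-fold higher on ES than on GS, with a median log2 difference of 3.64 and summed signals of 93661 and 5673. Their part in the repair gene differences was not tested. Between ES and mGS, 2 were higher and 3 lower on the ES array, 4.44% and 6.67%, against 6.9% and 5.13% of all genes. Between the knockout and GS arrays, 2 were higher and 4 lower on the knockout array, 4.44% and 8.89%, against 9.77% and 6.93% of all genes, or 13.3% against 16.7% in either direction. The lower share between ES and GS stood above that of all genes and the higher share below it, and the shares between ES and mGS lay near theirs. The median log2 difference of the 45 genes was -0.21 for mGS against GS, -0.37 for ES against GS, -0.15 for ES against mGS and -0.04 for knockout against GS, where all genes had -0.04, -0.03, 0.0032 and 0.07.

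**Figure D1:**
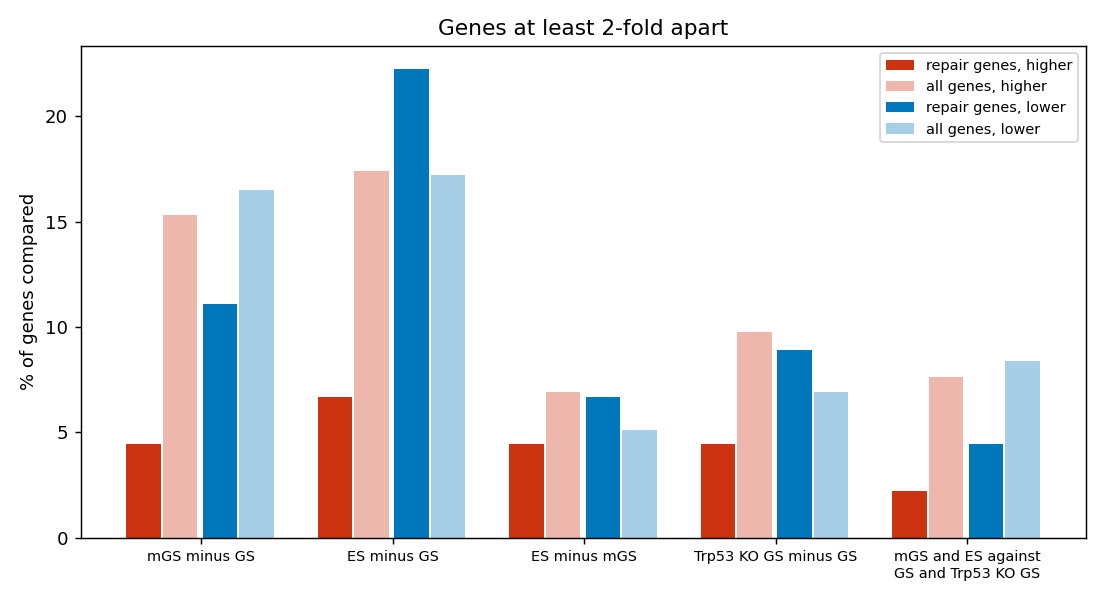
Share of genes at least 2-fold apart (y axis, % of genes compared) in each comparison (x axis), with solid bars for the 45 repair genes and pale bars for all genes, red for higher and blue for lower in the first-named array. The blue solid bar for ES against GS, 22.2%, is the tallest, and the solid red bars are below the pale ones in every comparison.

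Call splits moved with the scaling. The values as deposited gave 2 higher and 9 lower for mGS against GS, and 9 of 45 was then near the 19.5% of all genes called lower. For the knockout they gave 3 higher and 3 lower, 6.67% each, against 10.99% and 6.04% of all genes. With arrays centred on their medians, 1 was higher and 5 lower for ES against mGS, 2.22% and 11.1%, against 6.11% and 6.42% of all genes. The knockout then had 2 higher and 7 lower, 4.44% and 15.6%, against 7.21% and 9.22% of all genes. Under that centring the all-gene median moved by -0.16 in the knockout comparison and by -0.11 between ES and mGS.

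A count of which array read highest showed a lean toward the GS array. The GS array gave the highest signal for 19 of the 45 genes, the mGS and knockout arrays for 12 each and the ES array for 2. Among the 12897 genes that passed the floor anywhere, the GS array was highest for 20.8% and the ES array for 24.2%, against 42.2% and 4.44% of the repair genes. The mGS and knockout arrays were highest for 22.4% and 32.6% of all genes, against 26.7% of the repair genes for each. As deposited the GS array was highest for 16 repair genes and the knockout for 14, 35.6% and 31.1%, against 20.9% and 34.9% of all genes. With centred arrays they were highest for 22 and 7, 48.9% and 15.6%, against 25.5% and 26.2% of all genes. The ES array was highest for 3 under both, 6.67%, against 23.3% of all genes as deposited and 20.7% with centred arrays. The ES array was lowest for 19 repair genes, 42.2%, against 25.99% of all genes. The span from lowest to highest array had a median of 2.10-fold over the repair genes and 2.19-fold over all genes. It was under 2-fold for 19 repair genes, 42.2%, against 42.9% of all genes.

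**Figure D2:**
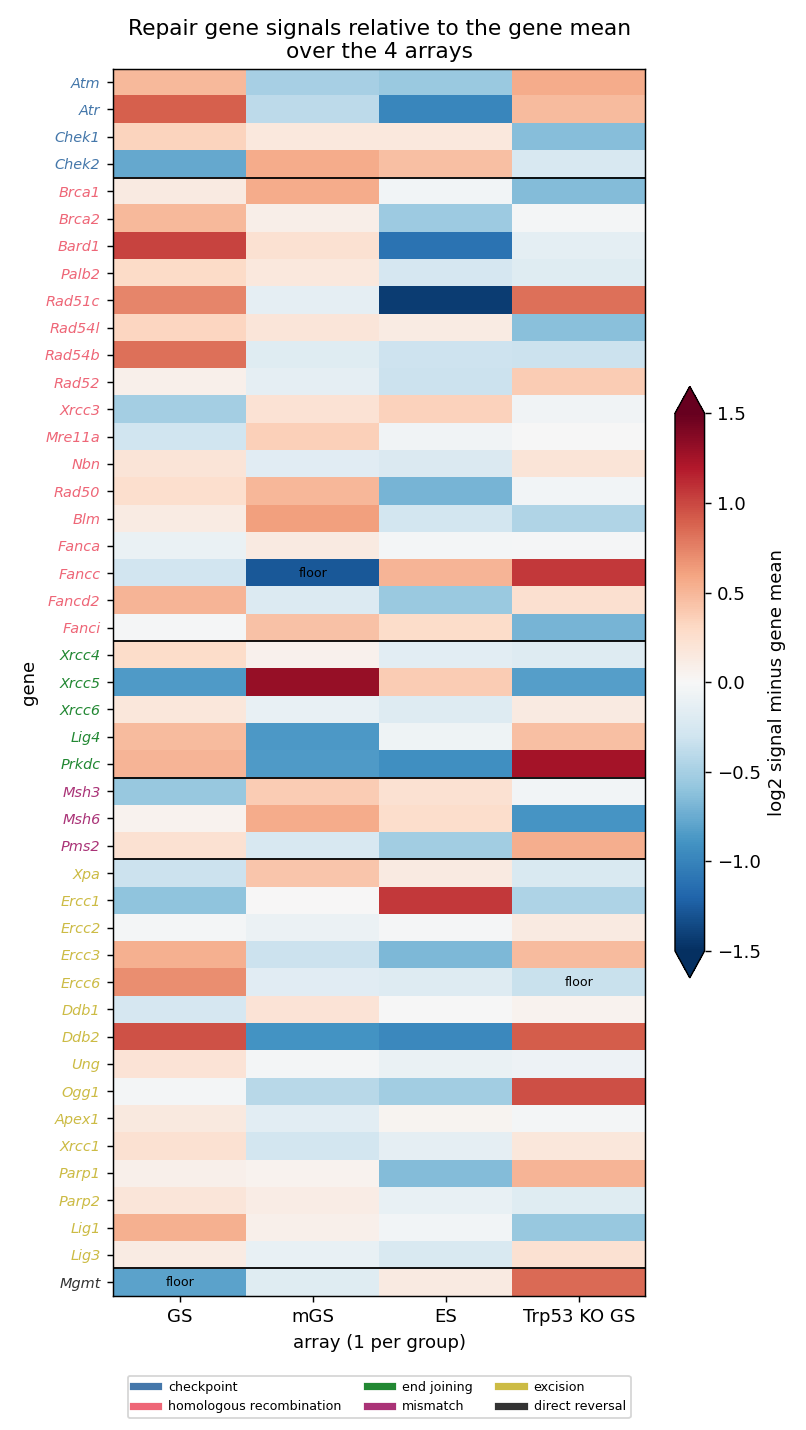
Normalised log2 signal of each repair gene (rows, grouped by class) on the 4 arrays (columns), minus the gene's mean over the arrays; red is higher, blue lower, and floor marks a value raised to the floor. Ddb2, Prkdc and Atm read high in the GS and knockout columns and low in the mGS and ES columns, and Xrcc5 the other way.

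Among the checkpoint kinases, the genes of the apical kinases read lower in the cultures in ES medium, and Chek2 read higher. Atr, the kinase of stalled forks, had signals of 3202 on GS, 1307 on mGS, 869 on ES and 2380 on the knockout array. Both ES medium arrays lay under both GS medium arrays; the gene was 2.45-fold lower on mGS and 3.68-fold lower on ES than on GS. Of its other probe sets, 1 gave log2 differences of -1.26 and -1.38, and the other -0.35 and -1.44. Atm, the kinase of breaks, read 3368, 1699.8, 1635 and 3542 in the same order. The arrays parted by medium, with 1.98-fold lower on mGS and 2.06-fold lower on ES, close to the 2-fold line on either side; its second probe set gave -0.49 and -0.38 in log2. Chek2, the kinase downstream of ATM, read 574 on GS, 1441 on mGS, 1343 on ES and 827 on the knockout array. It was 2.51-fold higher on mGS and 2.34-fold higher on ES than on GS, from 1 probe set. Chek1, the kinase downstream of ATR, read 2161, 1908, 1912 and 1098; the first 3 arrays were close and the knockout array was 1.97-fold lower than GS. The 2 other Chek1 probe sets above the floor gave -0.33 and -0.48 in log2 for that difference. They gave -0.59 and 0.72 for mGS against GS and -0.04 and 1.11 for ES against GS. The closeness of the first 3 arrays therefore rests on the probe set used.

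The upstream sequence of Chek2 is shown because it was 1 of 5 promoters of the list with an E2F letter match. E2F factors drive genes of DNA synthesis and S phase. The match searched was TTTGGCGC, TTTCCCGC, TTTGCCGC or TTTCGCGC on either strand in the 250 bases before the start, taken from RefSeq on GRCm38.p6, where 38 of the genes had an entry. Of the 44 windows of these genes 5 held it (11.4%), those of Bard1, Brca2, Chek2, Msh3 and Xrcc6, against 1.86% of 32851 windows of all genes. The match was not tested as a binding site. A second motif, the cell cycle homology region TTTGAA, was in 1 window of the list, that of Bard1, and in 16.0% of all windows. The Chek2 window is chr5:110839733-110839982 on the plus strand, with the E2F match in capitals at -152 from the start. The Bard1 window, shown because it held both motifs, is chr1:71102973-71103222 on the minus strand, with TTTGAA at -242 and the E2F match at -209, in capitals.
Chek2: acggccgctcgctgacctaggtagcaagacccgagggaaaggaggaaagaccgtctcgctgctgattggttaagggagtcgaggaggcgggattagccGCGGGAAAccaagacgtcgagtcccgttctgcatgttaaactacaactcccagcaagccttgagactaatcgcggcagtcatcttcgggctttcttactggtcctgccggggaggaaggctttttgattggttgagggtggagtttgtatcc
Bard1: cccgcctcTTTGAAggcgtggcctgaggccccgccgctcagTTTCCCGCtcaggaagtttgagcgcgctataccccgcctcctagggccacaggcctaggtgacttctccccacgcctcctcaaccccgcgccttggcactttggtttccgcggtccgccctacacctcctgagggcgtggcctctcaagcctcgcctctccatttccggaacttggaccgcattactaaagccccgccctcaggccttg
The genes with an E2F match did not share a direction: Chek2 was higher and Bard1 lower on the ES array than on GS.

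In homologous recombination, 12 of 17 measured genes read below GS on the ES array (13 with the values as deposited), 5 of them by at least 2-fold, and none was 2-fold higher. These are 70.6% below and 29.4% called lower, where all genes had 51.0% and 17.2%. Rad51c, which acts in strand exchange and its resolution, read 1446 on GS, 795 on mGS, 325 on ES and 1546 on the knockout array. The ES value lay apart from the rest; the gene was 4.45-fold lower on ES than on GS and 1.82-fold lower on mGS. Its second probe set gave -2.03 for ES against GS on the log2 scale. Bard1, the partner of BRCA1 in its ubiquitin ligase, read 412, 240.4, 95.3 and 186. All other arrays were under GS, and the gene was 4.33-fold lower on ES and 2.22-fold lower on the knockout array, from 1 probe set whose ES signal was not far above the floor. Brca2, which acts at resected ends, read 2419, 1833, 1184 and 1691, 2.04-fold lower on ES than on GS, from 1 probe set. Rad54b, a DNA translocase of recombination, read 874 on GS against 435, 397 and 396 on mGS, ES and knockout. Its GS value stood alone, and the folds against it were 2.01, 2.20 and 2.21 lower, from 1 probe set. Rad50, of the MRE11 end-processing complex, read 2515, 2986, 1304 and 2057 and was 1.93-fold lower on ES than on GS and 2.29-fold lower than on mGS. Its second probe set was under the floor on all arrays.

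The Fanconi genes, which deal with crosslinks between strands, went in different directions. Fancd2, the ubiquitin switch of the pathway, read 1532, 932, 732 and 1267, 2.09-fold lower on ES than on GS; its 3 other probe sets gave -0.56, -0.27 and -0.03 in log2, the last 2 as bounds at the floor. Fancc, a core complex gene, read 164 on GS, 284 on ES and 418 on the knockout array and was under the floor on mGS. That made it at least 3.44-fold higher on ES than on mGS and 2.55-fold higher on the knockout than on GS. Of its other probe sets, 1 gave -0.02 for ES against mGS and at least 1.04 for knockout against GS, so the first difference rests on 1 probe set. Fanca had the smallest span of the class, with signals of 587, 688, 616 and 619 and a range of 1.17-fold. Its second probe set read 158, 113, 171 and 152, so the small span rests on the probe set used. Among the genes without a call in any comparison, Brca1 read 2181, 2917, 1920 and 1261. Its other 3 probe sets gave -1.57, -1.36 and -0.28 for knockout against GS, where the one used gave -0.79. For ES against mGS they gave -1.24, -0.87 and -1.22, the last a bound, where the one used gave -0.60. The lack of a Brca1 call therefore rests on the probe set used. The rest of the class, Palb2, Rad54l, Rad52, Xrcc3, Mre11a, Nbn, Blm and Fanci, had spans from 1.33-fold for Nbn to 2.20-fold for Fanci.

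End joining held the largest difference between mGS and GS in the list, and its DNA-PK parts moved apart. Ku is a ring of the products of Xrcc5 and Xrcc6 that slides onto broken ends and recruits the kinase encoded by Prkdc; the ligase is encoded by Lig4 with its partner Xrcc4. Xrcc5 read 1104 on GS, 4899 on mGS, 2581 on ES and 1119 on the knockout array. The ES medium arrays lay above the GS medium arrays, and the gene was 4.44-fold higher on mGS and 2.34-fold higher on ES than on GS. Xrcc6 read 2923, 2396, 2262 and 2845, a span of 1.29-fold, so the Ku genes did not keep one ratio over the arrays. Prkdc read 1475 on GS, 576 on mGS, 548 on ES and 2461 on the knockout array. It was 2.56-fold lower on mGS and 2.69-fold lower on ES than on GS, and 1.67-fold higher on the knockout. All genes of chromosome 1, where Xrcc5 lies, had a median of 0.26 for mGS against GS, and those of chromosome 16, where Prkdc lies, 0.27 for knockout against GS; the part of these shifts was not tested. Xrcc5 and Prkdc each have 1 probe set, and Xrcc6 has a second one that was under the floor on all arrays, so these differences have no second measure. Lig4 read 508, 202, 349 and 501, 2.51-fold lower on mGS than on GS and 1.45-fold lower on ES, also from 1 probe set. Xrcc4 spanned 1.39-fold.

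The upstream windows of the Ku genes are shown because their products act as one ring while their signals differed. The Xrcc5 window is chr1:72307171-72307420 and the Xrcc6 window chr15:82016119-82016368, both on the plus strand. The Xrcc6 window held an E2F match, in capitals, at -46 from the start; the letters searched were not in the Xrcc5 window. The G and C share was 44.8% for Xrcc5 and 65.2% for Xrcc6.
Xrcc5: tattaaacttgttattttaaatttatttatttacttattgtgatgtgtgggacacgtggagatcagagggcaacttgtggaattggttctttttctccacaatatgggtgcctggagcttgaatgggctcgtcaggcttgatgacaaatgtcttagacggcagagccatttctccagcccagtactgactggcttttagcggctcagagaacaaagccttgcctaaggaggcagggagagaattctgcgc
Xrcc6: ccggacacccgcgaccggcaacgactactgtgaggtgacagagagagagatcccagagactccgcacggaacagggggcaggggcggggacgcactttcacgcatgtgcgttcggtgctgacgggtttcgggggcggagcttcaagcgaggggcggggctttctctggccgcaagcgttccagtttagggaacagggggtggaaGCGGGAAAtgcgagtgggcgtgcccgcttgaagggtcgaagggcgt

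**Figure D3:**
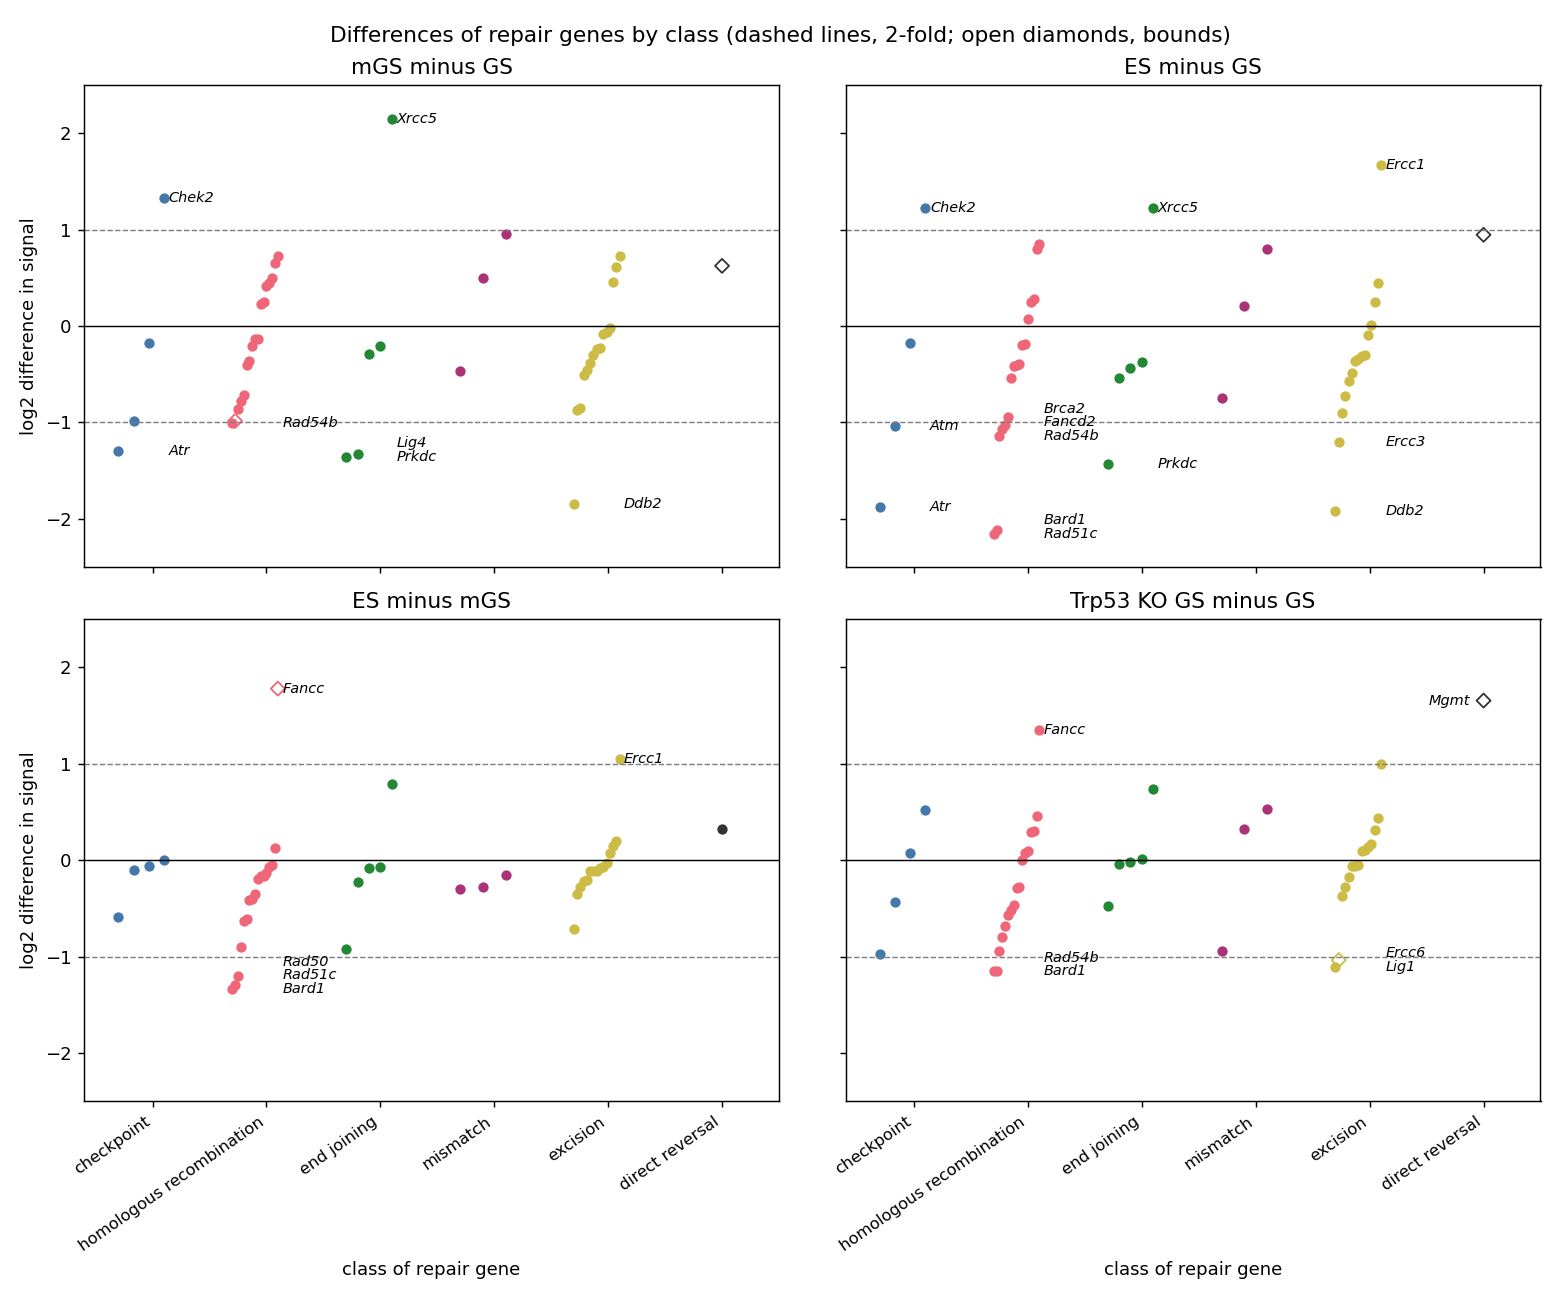
Log2 difference in signal (y axis) of each repair gene by class (x axis) in the 4 pairwise comparisons; each point is a gene, open diamonds are bounds, dashed lines mark 2-fold and genes past them are named. Xrcc5 reaches 2.15 in mGS against GS, and Rad51c and Bard1 lie at -2.15 and -2.11 in ES against GS.

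No mismatch repair gene of the 3 measured reached 2-fold in a comparison. Msh3, which recognises larger loops, read 454 on GS, 878 on mGS, 790.0 on ES and 657 on the knockout array, a span of 1.94-fold; a second probe set gave 1.30 for mGS against GS in log2, where the first gave 0.95. Msh6, which recognises base mismatches, read 8618, 12192, 9952 and 4496 and was lowest on the knockout array, 1.92-fold under GS. Pms2, of the MutL nuclease, read 1276, 921, 759 and 1594.

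Nucleotide excision held the widest division by medium. Ddb2, the sensor of ultraviolet photoproducts, read 950.03 on GS, 264 on mGS, 252 on ES and 921 on the knockout array. The pairs did not overlap; Ddb2 was 3.60-fold lower on mGS and 3.77-fold lower on ES than on GS. Its second probe set gave -1.77 and -1.72. The knockout and GS arrays differed by -0.05 in log2, and by -0.41 with the second probe set. Ddb1, its partner in the complex, spanned 1.37-fold. Ercc3, a helicase of TFIIH, read 2021, 1119, 877 and 1942, 2.30-fold lower on ES and 1.81-fold lower on mGS, with no other probe set to compare. Ercc2, the other helicase of TFIIH, read 305, 292, 308 and 343, a span of 1.17-fold and the smallest of the excision class. Ercc1, the partner of the XPF nuclease, read 698, 1067, 2216 and 770.02 and was 3.18-fold higher on ES than on GS and 2.08-fold higher than on mGS. A second probe set of Ercc1 gave 1.53 and 0.82. Ercc6, of repair coupled to transcription, read 169 on GS, 92.7 on mGS and 90.9 on ES and was under the floor on the knockout array, at least 2.05-fold lower. All its values were near the floor, and it had no other probe set to compare. Xpa spanned 1.66-fold.

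The 8 base excision genes read a little below GS on both ES medium arrays, by -0.50 to -0.02 on mGS and by -0.73 to -0.10 on ES in log2, and none by 2-fold. Of all genes compared, 51.9% lay below GS on mGS and 51.0% on ES. With the values as deposited, 7 of 8 lay below on each array, and with arrays centred on medians 6 and 7. Other probe sets of these genes went both ways. For mGS against GS, 3 of Lig3 gave 0.50, 0.47 and 0.30 and 1 of Parp1 gave 0.47. Others lay below GS there, with -0.25 and -0.43 for Apex1, -0.07 for Parp1, -0.12 for Ogg1 and -0.45 for Lig3. These Ogg1 and Lig3 values are bounds. For ES against GS, the second of Ogg1 gave 0.80, 1 of Apex1 0.15, 1 of Lig3 0.33 and 1 of Parp1 at least 1.59. Below GS there were Apex1 with -0.07, Parp1 with -0.47 and -0.0009, and Lig3 with -0.19, -0.15 and -0.45, the last a bound. For Ogg1, Apex1, Parp1 and Lig3 the direction on at least 1 ES medium array therefore rests on the probe set chosen. Ung, Xrcc1, Parp2 and Lig1 had no other probe set to compare. Lig1, the ligase that also seals Okazaki fragments, read 4529 on GS, 3308 on mGS, 3057 on ES and 2108 on the knockout array, 2.15-fold lower there. Parp1, the break sensor that makes ADP-ribose chains, read 10692, 10557, 6465 and 14480, lowest on ES. The highest array depended on the scaling: as deposited it was mGS, with 12115 against 11541 on the knockout. Ogg1, the glycosylase of oxidised guanine, read 140.1 on GS, 108 on mGS, 99.8 on ES and 279.9 on the knockout array. The knockout value was highest, 0.998 above GS in log2 and so just short of a call, with 0.98 from its second probe set. It lies on chromosome 6, where the median of all genes in this comparison was 0.51, and the part of that shift was not tested. Ung, Apex1, Xrcc1, Parp2 and Lig3 spanned from 1.23-fold for Apex1 to 1.42-fold for Xrcc1. Mgmt, the methyltransferase that takes alkyl groups from guanine, was under the floor on GS and read 127 on mGS, 159 on ES and 261 on the knockout array. It was at least 3.15-fold higher on the knockout than on GS, from 1 probe set.

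Divided by medium, 3 genes were at least 2-fold apart in all 4 cross pairs of arrays. Xrcc5 was higher in the ES medium cultures, with a smallest difference of 2.31-fold, and Ddb2 and Prkdc were lower, by at least 3.49-fold and 2.56-fold in every cross pair. Of all 12897 genes, 7.65% were higher and 8.38% lower by this rule, against 2.22% and 4.44% of the repair genes. Cell type and medium cannot be told apart in this division.

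Between ES and mGS, the 3 genes lower by at least 2-fold were Bard1, Rad51c and Rad50, 2.52-fold, 2.45-fold and 2.29-fold, and all lie on chromosomes 1 and 11. All genes of those chromosomes were shifted in this comparison, with a median log2 difference of -0.37 on chromosome 1 over 653 genes and -0.35 on chromosome 11 over 998. The medians of the other autosomes lay between -0.02 and 0.09. All 7 repair genes of chromosomes 1 and 11, which are Bard1, Xrcc5, Parp1, Brca1, Rad51c, Rad50 and Lig3, were below 0, with a median of -0.92. The other 38 had a median of -0.11, with 2 higher and none lower by 2-fold. After the chromosome medians were subtracted, a setting chosen after seeing the data, none of the 3 stayed past 2-fold and Bard1, Rad51c and Rad50 lay between -0.97 and -0.84. The part of the chromosome shift in these differences was not tested. Fibroblast markers also moved with the comparison. Of 24 such markers, 14 were above the floor on mGS and 23 on ES, with summed signals of 24345 and 93661, and their part in the result was not tested. The dap poly-A control read 255 on mGS and 2545 on ES as deposited.

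**Figure D4:**
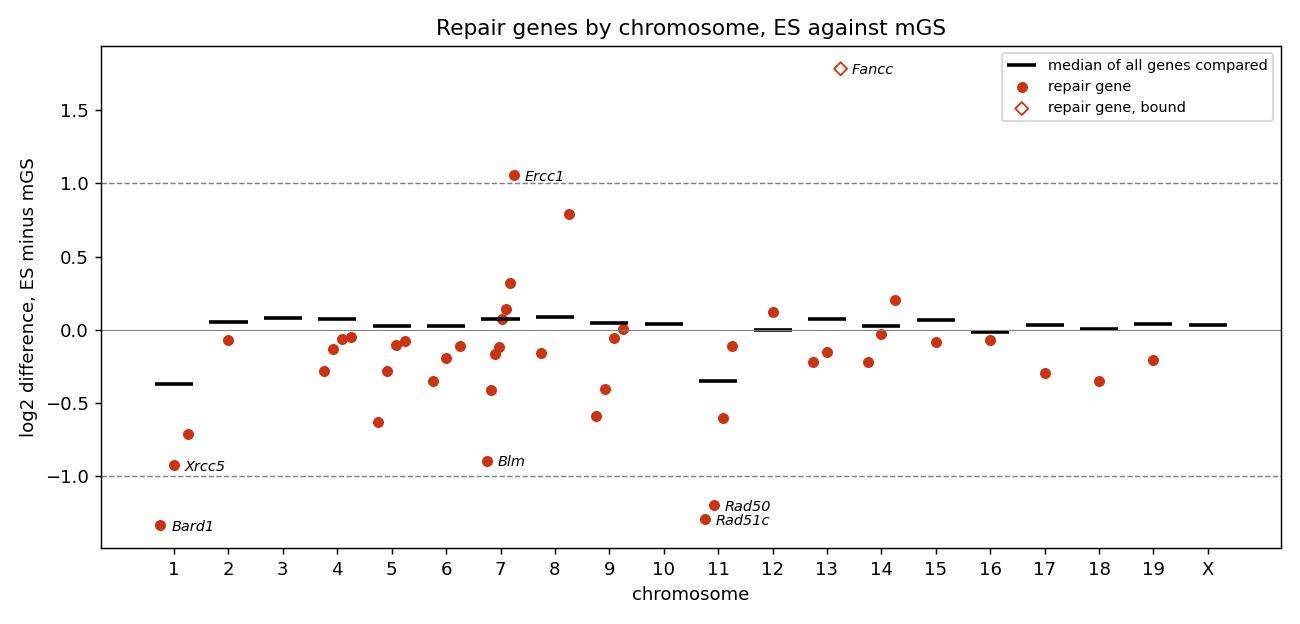
Log2 difference of ES minus mGS (y axis) for each repair gene (points) by chromosome (x axis), with black bars for the median of all genes compared on that chromosome; the open diamond is a bound and dashed lines mark 2-fold. The black bars sit at -0.37 and -0.35 on chromosomes 1 and 11 and near 0 elsewhere, and all 7 points on those chromosomes lie below 0.

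Between the knockout and GS arrays, the genes with a lower call were Bard1, Rad54b, Lig1 and Ercc6, and those with a higher call were Fancc and Mgmt. Chek1, Rad54l and Msh6 were close to a lower call, with log2 differences of -0.98, -0.94 and -0.94; the other Rad54l probe sets above the floor gave -0.06 and -0.58. The replication and mitosis genes of the same arrays moved as well: 26 of 26 measured were below GS, of which 16 passed 2-fold. Their median was -1.17, in a range from -3.97 to -0.23. The same list had medians of -0.15 for mGS against GS and -0.10 for ES against mGS. Its part in the lower repair genes was not tested. As deposited, the bioC hybridisation control read 602 on the knockout array and from 3066 to 3499 on the others, and the dap control 3055 against 271 on GS. Fibroblast markers above the floor numbered 17 of 24 on the knockout and 13 on the GS array, with summed signals of 9196 and 5673.

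A wider list of 93 other repair genes, 83 of them measured, was described beside these. Of 83 compared, 10 passed 2-fold upward and 14 downward on mGS against GS, and 9 higher and 15 lower on ES than on GS. The shares, 12.05% and 16.9% for mGS and 10.8% and 18.1% for ES, were under or near those of all genes, 15.3% and 16.5% for mGS and 17.4% and 17.2% for ES. Of 81 compared between ES and mGS, none was higher and 4 lower, and of 82 between knockout and GS, 1 was higher and 11 lower. Their lower shares were 4.94% and 13.4%, against 5.13% and 6.93% of all genes. The higher shares were 0% and 1.22%, against 6.9% and 9.77% of all genes. The medians were 0.03, -0.28, -0.15 and -0.26 in that order. Genes at least 4-fold apart were few. Rad9b, a paralogue of the checkpoint clamp gene Rad9a, read 500 on GS, 106 on mGS, 146 on ES and 393 on the knockout array, 4.71-fold lower on mGS. Neil3, a glycosylase of replicating cells, read 343 on GS and was under the floor elsewhere, at least 4.15-fold lower on all other arrays. Brip1, the helicase partner of BRCA1, read 743, 385, 159 and 397, 4.66-fold lower on ES, and lies on chromosome 11. Trp53bp1, which steers breaks toward end joining, read 8905, 3634, 2174 and 8334, 4.10-fold lower on ES and lower on both ES medium arrays than on both GS medium arrays. Only the highest probe set of each gene was used, of 6 listed for Trp53bp1, 2 each for Rad9b and Neil3 and 1 for Brip1.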

How the data were processed

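The values the authors deposited are linear intensities, 1 for each probe set of an array; per the labels' protocols, Trizol RNA was made into biotin-labelled cRNA for Affymetrix arrays, and the sources used here name no summarising software. Means of these values after 2% was trimmed from each end were 500.003 on every array. Of 45101 probe sets, 64 controls were set aside. Array medians and 75th percentiles ranged over 0.29 and 0.27 in log2, above a limit of 0.2, so log2 values were quantile normalized. Of 45037 probe sets, 34945 had 1 gene symbol in the platform annotation, 932 several (left out) and 9160 none listed. A gene took its probe set of highest mean; the floor was the 50th percentile. The genes, lists and rules were chosen with earlier results of these data known. Named in full are genes past 2-fold in any comparison and the smallest span in each class, and of other repair genes those past 4-fold; other genes were picked after their values were seen. Chromosomes are from GRCm38.p6. No test was made, with 1 array per group; the number of arrays limits precision. Steps were tested on simulated data with added noise of 0.2 in log2, less than the spread between probe sets. Changes were planted only in genes of high signal, so genes near the floor were not covered. Alternatives changed scaling, probe sets, floor, pseudocount (32), symbols and the fold (1.5). Tables were made in Python 3.11.15 with pandas 2.3.3, numpy 2.4.6 and scipy 1.17.1, and plots with matplotlib 3.10.9.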

Additional observations from a re-analysis of the deposited data

How the results depend on the processing

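The median over the repair genes kept its sign under every alternative run for mGS against GS (-0.28 to -0.07) and ES against mGS (-0.26 to -0.04). For knockout against GS it was 0.0057 as deposited and -0.20 with centred arrays, where 33 of 45 genes lay below 0 in place of 24. The median of all genes moved too in this comparison, from 0.07 to 0.12 as deposited and to -0.08 with centred arrays. For ES against GS the median over the repair genes was 0.05 over the 22 genes with a second probe set, and -0.52 to -0.30 otherwise. Of 34 calls of single genes, 21 held under every setting run for them other than the 1.5-fold one, among them those of Xrcc5, Ddb2, Prkdc, Chek2, Lig4 and Lig1. Of these genes only Ddb2 has a second probe set. For the others that setting could not be run, and the mean of probe sets left their values unchanged by construction. Counts are small, and these moved by over 1.5 times. For mGS against GS, the lower count of 5 was 9 with the values as deposited and 1 of 21 compared with the probe set of second highest mean. For ES against GS that probe set gave 1 higher and 3 lower of 22 compared. For ES against mGS, the higher count of 2 was 1 with centred arrays, with the floor at the 60th percentile and with chromosome medians subtracted, and 0 with the mean of probe sets or the second probe set; the lower count of 3 was 5 with centred arrays and 0 with chromosome medians subtracted. For the knockout against GS, the higher count of 2 was 1 with the second probe set and with the 60th percentile floor, and the lower count of 4 was 7 with centred arrays and 1 with the second probe set. In the division by medium, the second probe set gave 0 higher and 1 lower, and the values as deposited 4 lower. With the second probe set, the higher and lower shares of all genes were 14.3% and 14.7% for mGS and 16.5% and 16.8% for ES. They were 7.36% and 5.33% for ES against mGS, 8.06% and 8.88% for the knockout, and 7.10% and 6.62% for the division. As deposited, 9.80% of all genes were lower in the division. For ES against mGS, 5.61% of all genes were higher with the 60th percentile floor and 6.30% with the mean of probe sets. With chromosome medians subtracted, 6.81% were higher and 4.50% lower. For the knockout, 8.48% were higher with the 60th percentile floor. At 1.5-fold the higher and lower counts were 8 and 12 for mGS, 7 and 14 for ES, 3 and 9 for ES against mGS, 4 and 9 for the knockout, and 2 and 6 for the division, each of 45. In that order, all genes had 25.4% and 28.3%, 27.4% and 28.7%, 15.6% and 13.9%, 22.3% and 16.1%, and 13.0% and 15.8%. Fancc turned to -0.0186 for ES against mGS with its second probe set. Fewer genes have a second probe set; otherwise the cause was not tested. No paired analysis was possible because each group has 1 array.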
